A study of Mus musculus with 8 samples.

Results

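The genes described here encode the Fc receptors that BMDCs (bone marrow-derived dendritic cells) use to bind the constant region of IgG antibodies, together with the chain through which these receptors signal. They are the activating receptors Fcgr1, Fcgr3 and Fcgr4, the signalling chain Fcer1g, the inhibitory receptor Fcgr2b and the neonatal receptor Fcgrt, 6 genes of 47937 in the count tables. The family was selected on its name, but with the genotype and LPS differences of the same libraries already known, so that the members' values are given as descriptions, without p-values, and their calls in the fits over all genes are counted once and support nothing. Bulk RNA-seq read counts were compared in 8 BMDC libraries, 2 for each of 4 groups. The groups were WT BMDCs and 3xGrk-/- BMDCs, in which the genes of the G protein-coupled receptor kinases GRK2, GRK3 and GRK6 are targeted, each left untreated or stimulated with bacterial lipopolysaccharide (LPS). By the study's methods, all cultures were grown from C57BL6/J bone marrow in GM-CSF medium and LPS was given at 20 ng/ml for 24 h. The labels give the genotype only as a triple knockout. The study's results section names Vav-iCre Grk2fl/fl Grk3-/- Grk6fl/fl mice, in which Cre is active from hematopoietic precursors onward and Grk3 is deleted in every tissue, as a source of such BMDCs. Such GM-CSF cultures are mixtures of cells with dendritic cell and macrophage features, and in bulk RNA fewer cells of a type and less RNA per cell cannot be told apart.

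Fc receptors couple antibody specificity to innate cells. FcγRI, FcγRIII and FcγRIV, encoded by Fcgr1, Fcgr3 and Fcgr4, need the Fc receptor γ chain (Fcer1g), which carries the ITAM motif that recruits the kinase Syk, whereas FcγRIIB (Fcgr2b) carries an ITIM motif, recruits the phosphatase SHIP-1 (Inpp5d) and restrains the activating receptors when both are bound by the same immune complex. The neonatal receptor FcRn, of which Fcgrt encodes the heavy chain and B2m the light chain, binds IgG in acidic endosomes, returns it to the surface and routes immune complexes for antigen presentation. Dendritic cells use these receptors to take up immune complexes, and the level of activating against inhibitory receptor sets how readily they mature in response.

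The libraries held 4713305 to 6933358 gene counts. Grk2 counts in the 3xGrk-/- libraries were 46.4% of WT without LPS and 27.1% with LPS, and Grk6 counts were 43.8% and 34.5%. Grk3 counts were 78.1% and 75.0% of WT. For all 3 genes, counts over the whole gene can include reads from exons outside the deleted part. None of these values therefore checks the deletions or gives the kinase that remains. By immunoblot the paper reports that the GRK proteins were almost completely lost in BMDCs from the Vav-iCre mice. The summed level of 8 macrophage and monocyte markers moved with the groups: in CPM (counts scaled to a common library total) it was 2027 to 2055 in WT, 8529 to 8561 in 3xGrk-/-, 653 to 671 in LPS-treated WT and 6970 to 7083 in LPS-treated 3xGrk-/- BMDCs. Lyz2 was the largest single contributor, at means of 1330, 7081, 286 and 4586 CPM in the same order. Without Lyz2, left out after its values were seen, the other 7 markers summed to 700.2 to 721 CPM in WT, 1436 to 1493 CPM in 3xGrk-/-, 372 to 379 CPM in LPS-treated WT and 2412 to 2469 CPM in LPS-treated 3xGrk-/- BMDCs, so that within 3xGrk-/- BMDCs the sum was then higher with LPS than without. The 8 dendritic cell markers, among them Zbtb46, Itgax and H2-Aa, had counts in every group, and their sum was 10505 to 10567, 5705 to 5802, 7611 to 8092 and 6537 to 6661 CPM in the same order. In untreated 3xGrk-/- BMDCs the means of the MHC class II genes H2-Aa and H2-Ab1, their regulator Ciita, Zbtb46 and Dpp4 were lower than in WT, while those of Itgax (mean 947 CPM in WT and 1083 CPM in 3xGrk-/-), Ccr7 (1224 and 1450 CPM) and Flt3 (17.2 and 33.5 CPM) were higher there. Neutrophil markers also moved with the groups and summed to 698 to 742 CPM in WT, 515 to 532 CPM in 3xGrk-/-, 335 to 391 CPM in LPS-treated WT and 186 to 202 CPM in LPS-treated 3xGrk-/- BMDCs. Mast cell and basophil markers summed to 71.9 to 102 CPM, and eosinophil markers to 896 to 966 CPM in WT but 36.2 to 57.6 CPM in 3xGrk-/- BMDCs. B cell and T or NK cell markers stayed under 1 CPM in sum, with Eomes at 0 counts in all 8 libraries. The part of these cell populations in the Fc receptor values was not tested.

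Among the activating receptors, Fcgr1 and Fcgr4 were high in only 1 of the 4 groups, the LPS-treated 3xGrk-/- BMDCs, while Fcgr3 was abundant in all groups. Fcgr1 encodes FcγRI (CD64), the high-affinity receptor for monomeric IgG and a widely used macrophage marker. Its gene lies on chromosome 3 (96282909 to 96293969, minus strand, GRCm38). Fcgr1 was counted at 37.4 and 35.6 CPM in WT, 23.5 and 23.3 CPM in 3xGrk-/-, 20.7 and 20.3 CPM in LPS-treated WT, and 309.6 and 311 CPM in LPS-treated 3xGrk-/- BMDCs. No 2 groups overlapped, and both LPS-treated 3xGrk-/- libraries stood about an order of magnitude above the other 6. How often groups fail to overlap over all genes was not counted, so nothing is read from the lack of overlap in any member. Without LPS, Fcgr1 was 1.56-fold lower in 3xGrk-/- than in WT BMDCs (log2 -0.64, SE 0.116, n = 2 per group), whereas with LPS it was 15.1-fold higher (log2 3.92, SE 0.0844). LPS lowered it 1.78-fold in WT (log2 -0.83, SE 0.104) and raised it 13.3-fold in 3xGrk-/- BMDCs (log2 3.73, SE 0.0768), a difference between the 2 responses of 4.56 on the log2 scale (SE 0.131).

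Fcgr4 encodes FcγRIV, a receptor of intermediate affinity for IgG2 subclasses (chromosome 1, 171018920 to 171029761, plus strand, GRCm38). It had 1 and 2 counts in the WT libraries, 5 and 10 in the 3xGrk-/- libraries, 9 and 5 in the LPS-treated WT libraries and 260 and 243 in the LPS-treated 3xGrk-/- libraries. It was therefore close to the limit of detection in every group but the last, where it reached 47.3 and 39.4 CPM. At such counts only ratios with a counting interval can be given for the first 3 groups: without LPS the pooled Fcgr4 count per library size was 4.97 times that of WT in 3xGrk-/- BMDCs (95% exact interval 1.41 to 26.8), and LPS-treated WT BMDCs had 4.82 times the level of untreated WT BMDCs (1.35 to 26.2). With LPS the ratio of 3xGrk-/- to WT was 36.9 (21.8 to 67.9), and the ratio of LPS-treated to untreated 3xGrk-/- BMDCs was 35.8 (21.5 to 64.4). These intervals, and those of the other count ratios, cover counting error only. The fitted log2 fold change between the LPS-treated genotypes was 5.18 (SE 0.244). It was 5.77 without the first LPS-treated WT library, and the fitted LPS response in 3xGrk-/- BMDCs, 5.14 (SE 0.237), was 5.81 without the second untreated 3xGrk-/- library.

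Fcgr1 and Fcgr4, on different chromosomes, were both highest in the LPS-treated 3xGrk-/- libraries, so the bases before their RefSeq start sites are shown, with capitals on matches to 4 short motifs searched on both strands: TTCNNNGAA, bound by STAT factors; GAGGAA, the core bound by PU.1; GAAANNGAA, a core of interferon response elements; and TTGCNNAA, bound by C/EBP factors. The first is chr3:96293970-96294219 (250 bases, minus strand) and the second chr1:171018676-171018919 (244 bases, plus strand, cut where the annotated gene begins), both in GRCm38.p6:
Fcgr1: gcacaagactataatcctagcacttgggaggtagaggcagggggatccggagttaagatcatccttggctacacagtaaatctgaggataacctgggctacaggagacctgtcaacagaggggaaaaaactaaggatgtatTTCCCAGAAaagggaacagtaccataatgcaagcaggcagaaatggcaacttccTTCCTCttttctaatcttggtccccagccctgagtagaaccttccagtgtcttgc
Fcgr4: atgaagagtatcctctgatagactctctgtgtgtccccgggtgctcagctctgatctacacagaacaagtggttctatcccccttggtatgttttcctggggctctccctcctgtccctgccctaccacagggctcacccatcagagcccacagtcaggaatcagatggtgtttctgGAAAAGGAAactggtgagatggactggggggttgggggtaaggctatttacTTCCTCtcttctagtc
The Fcgr1 window held TTCNNNGAA with its first base at position -109 from the start and GAGGAA on the opposite strand at -55. The Fcgr4 window held GAAANNGAA at -73 and GAGGAA on the opposite strand at -22. The first motif was present in 7.18%, GAGGAA in 23.1%, GAAANNGAA in 7.16% and TTGCNNAA in 9.55% of 27025 promoter windows of the same 250 bases in the RefSeq table, which held all 6 members. Of the other members, Fcgr3 had GAGGAA at -6 and TTGCNNAA at -28 and Fcgrt had TTGCNNAA at -239, all on the opposite strand, and Fcgr2b and Fcer1g had no match to these letters. The windows searched for Fcgr3 and Fcgr2b lay wholly within the annotated genes, so their results do not concern bases before the gene. None of the matches overlapped another, and a match is a description of the sequence only.

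Fcgr3 encodes FcγRIII, the low-affinity activating receptor for IgG immune complexes (chromosome 1, 171051174 to 171064935, minus strand). It was counted at 142.7 and 132.2 CPM in WT, 255 and 247 CPM in 3xGrk-/-, 131 and 132.6 CPM in LPS-treated WT, and 457 and 449.9 CPM in LPS-treated 3xGrk-/- BMDCs. The 4 WT libraries lay close together whether or not LPS was given, and both 3xGrk-/- groups lay above them. Fcgr3 was 1.84-fold higher in 3xGrk-/- than in WT BMDCs without LPS (log2 0.88, SE 0.050) and 3.44-fold higher with LPS (log2 1.78, SE 0.0623). Untreated and LPS-treated WT libraries overlapped (log2 -0.06, SE 0.0607, or -0.27 and called when library size alone set the scale). In 3xGrk-/- BMDCs Fcgr3 was 1.80-fold higher with LPS than without (log2 0.85, SE 0.0532).

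Fcer1g (chromosome 1, 171229572 to 171234365, minus strand) encodes the γ chain on which surface expression and signalling of the 3 activating receptors depend. It stood at 140.2 and 140.2 CPM in WT, 244 and 237 CPM in 3xGrk-/-, 106 and 123 CPM in LPS-treated WT, and 429.9 and 443 CPM in LPS-treated 3xGrk-/- BMDCs. As for Fcgr3, both 3xGrk-/- groups lay above both WT groups, and here the LPS-treated WT libraries lay below the untreated ones. The γ chain transcript was 1.72-fold higher in 3xGrk-/- BMDCs without LPS (log2 0.78, SE 0.0502) and 3.80-fold higher with LPS (log2 1.93, SE 0.0698). The LPS response was -0.29 (SE 0.0659) on the log2 scale in WT and 0.86 (SE 0.0572) in 3xGrk-/- BMDCs, so the 2 responses had opposite signs and differed by 1.15 (SE 0.0872).

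The inhibitory receptor Fcgr2b (chromosome 1, 170958617 to 170976547, minus strand) was the member with the largest rise in 3xGrk-/- BMDCs among those fitted without LPS. Fcgr2b was counted at 89.0 and 79.0 CPM in WT, 273 and 262 CPM in 3xGrk-/-, 55.2 and 61.0 CPM in LPS-treated WT, and 319 and 324 CPM in LPS-treated 3xGrk-/- BMDCs. The libraries split by genotype first, since each 3xGrk-/- library held at least 262 CPM and no WT library more than 89.0 CPM. Fcgr2b was 3.21-fold higher in 3xGrk-/- BMDCs without LPS (log2 1.68, SE 0.0546) and 5.53-fold higher with LPS (log2 2.47, SE 0.0736). LPS lowered it in WT (log2 -0.52, SE 0.0767) and raised it slightly in 3xGrk-/- BMDCs (log2 0.26, SE 0.0567), and the latter value was 0.05 when library size alone set the scale.

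Fcgr2b and Fcgr3, on either side of Fcgr4, share stretches of coding sequence, and the counts of each can depend on how shared reads were assigned. Their longest shared run within the annotated coding sequences is 129 bases, bases 263 to 391 of the Fcgr3 and 278 to 406 of the Fcgr2b coding sequence, in which a read names neither gene, and it is shown for that reason:
Fcgr3 and Fcgr2b: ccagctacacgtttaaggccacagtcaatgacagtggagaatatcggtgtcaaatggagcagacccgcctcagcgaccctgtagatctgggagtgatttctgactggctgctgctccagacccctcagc
Of the 1733 stretches of 50 bases in Fcgr3 transcripts, 166 (9.58%) also occurred in Fcgr2b, and Fcgr2b shared 249 of 5685 (4.38%), 166 of them with Fcgr3, and 47 genes in all held at least 1 of these stretches. Fcgr1, Fcgr4, Fcer1g and Fcgrt shared none with any other gene. The longest coding run that Fcgr4 shared with another Fcgr gene was 14 bases, with Fcgr3.

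**Figure D1:**
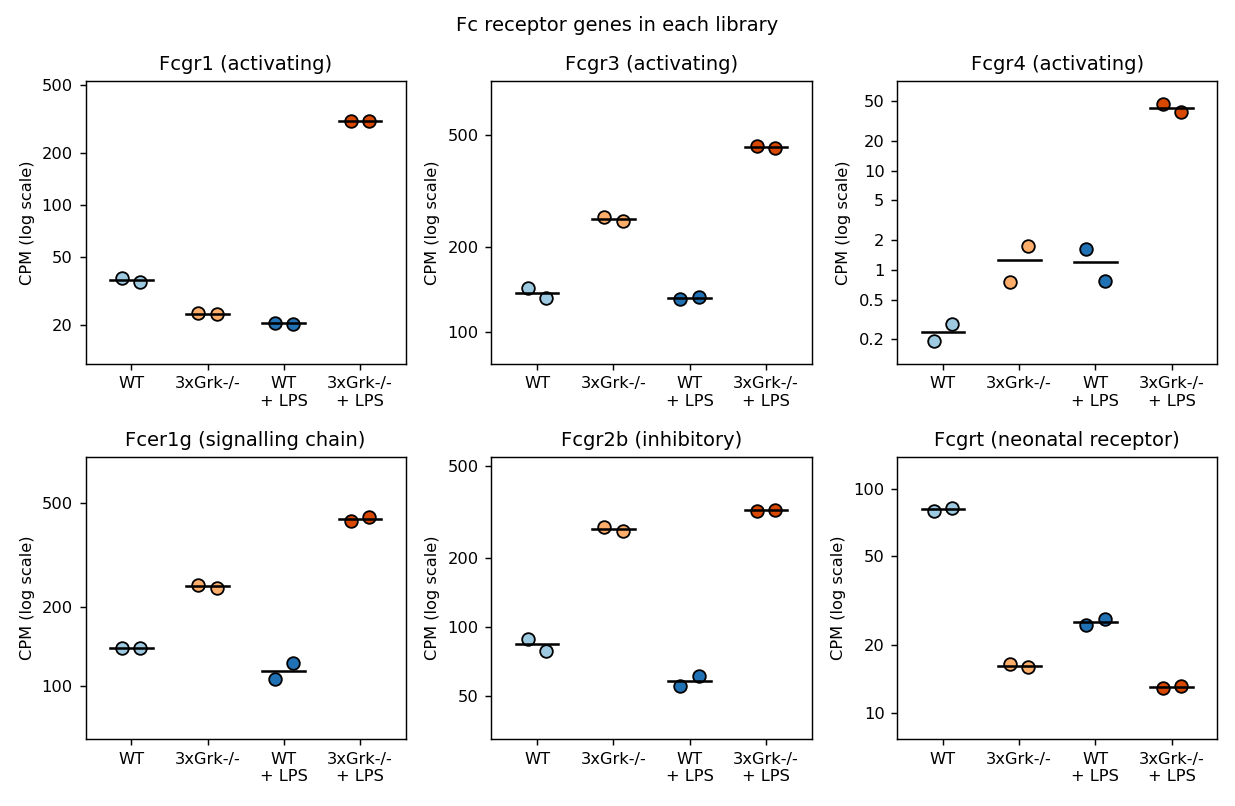
Level of each Fc receptor gene in CPM (log axis, its range set for each gene) in the 8 libraries. Each point is 1 library and each line the mean of the 2 libraries of a group. Fcgr1 and Fcgr4 are high only in LPS-treated 3xGrk-/- BMDCs (309.6 to 311 and 39.4 to 47.3 CPM), Fcgr2b splits by genotype, and Fcgrt is highest in untreated WT BMDCs.

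To compare levels between genes, CPM were divided by the length of all annotated exons of a gene in kilobases (RPKM). In this unit Fcer1g was the most abundant member in every group, with means of 160.4 ± 0.0652, 275 ± 5.74, 131 ± 13.4 and 499.6 ± 10.9 RPKM (SD, n = 2) in WT, 3xGrk-/-, LPS-treated WT and LPS-treated 3xGrk-/- BMDCs. Fcgr3 came next in all 4 groups, with 79.2, 145, 75.9 and 261 RPKM in the same order. In untreated WT BMDCs Fcgrt followed at 38.4 RPKM, then Fcgr2b at 14.5 and Fcgr1 at 14.1 RPKM, whose ranges of 13.7 to 15.4 and 13.8 to 14.5 RPKM overlapped, and Fcgr4 was last at 0.188 RPKM. In LPS-treated 3xGrk-/- BMDCs the order after Fcer1g and Fcgr3 was Fcgr1 at 119.9, Fcgr2b at 55.5, Fcgr4 at 34.5 and Fcgrt at 6.19 RPKM, with no overlap between neighbours. Fcgrt, behind only Fcer1g and Fcgr3 in untreated WT BMDCs, was thus the lowest member in LPS-treated 3xGrk-/- BMDCs.

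The make-up of the 4 Fcgr transcripts differed between the groups. Fcgr3 supplied 73.3% and 73.4% of their summed RPKM in the WT libraries, 72.1% and 71.9% in 3xGrk-/-, 80.04% and 80.1% in LPS-treated WT, and 55.3% and 55.5% in LPS-treated 3xGrk-/- BMDCs. Fcgr1 supplied 12.9% and 13.3%, 4.45% and 4.53%, 8.47% and 8.21%, and 25.2% and 25.7% in the same order. The share of the inhibitory Fcgr2b was 13.7% and 13.2% in WT and 23.1% and 22.9% in 3xGrk-/- BMDCs, and fell to 10.1% and 11.0% in LPS-treated WT and 11.6% and 12% in LPS-treated 3xGrk-/- BMDCs.

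Expressed as a ratio, the summed activating receptors (Fcgr1, Fcgr3 and Fcgr4) to Fcgr2b, per length, stood at 6.30 and 6.60 in WT, 3.33 and 3.37 in 3xGrk-/-, 8.90 and 8.06 in LPS-treated WT and 7.63 and 7.34 in LPS-treated 3xGrk-/- BMDCs. Untreated 3xGrk-/- BMDCs had the lowest ratio of activating to inhibitory transcripts, and per length no 2 groups overlapped. The absolute ratios rest on the exon lengths, since the exons of Fcgr2b sum to 5790 bases while its longest annotated coding transcript has 3544. Taken from counts without length, the mean ratios were 2.08, 1.03, 2.65 and 2.51, and the LPS-treated groups then overlapped (2.78 and 2.52 in WT, 2.55 and 2.47 in 3xGrk-/-). The ratio of Fcer1g to the 3 activating receptors was 1.66 and 1.78 in WT, 1.78 and 1.77 in 3xGrk-/-, 1.44 and 1.66 in LPS-treated WT and 1.17 and 1.24 in LPS-treated 3xGrk-/- BMDCs, the last group being the lowest.

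**Figure D2:**
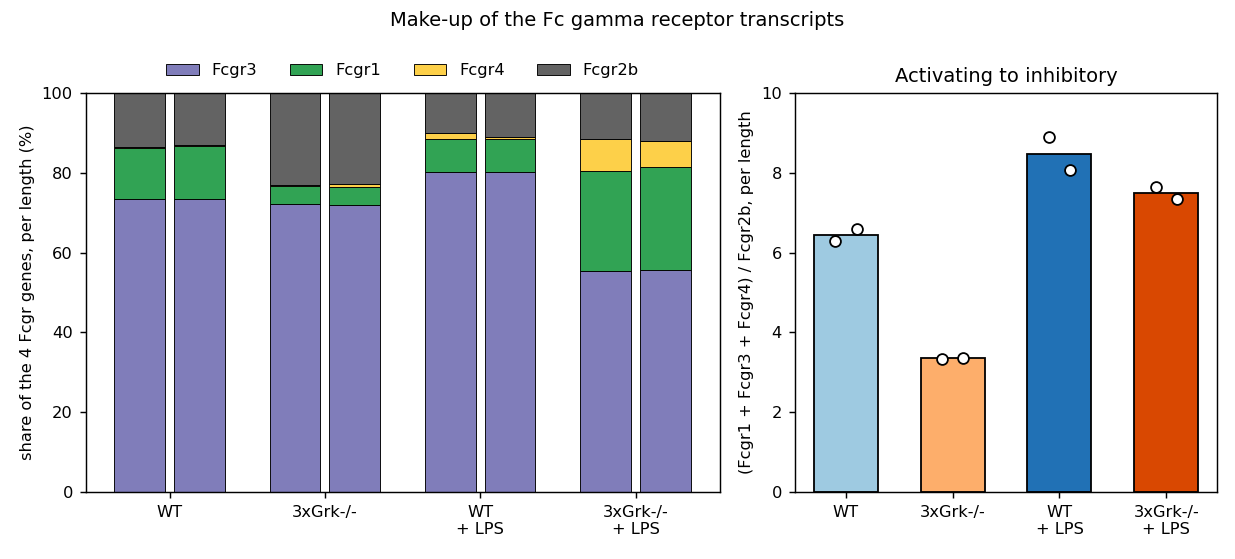
Left, percent of the summed RPKM of the 4 Fcgr genes supplied by each, 1 bar per library. Right, ratio of activating to inhibitory Fcgr transcripts per length, with bars at the mean and points for the 2 libraries. Fcgr2b takes its largest share, 22.9% to 23.1%, and the ratio its lowest values, 3.33 and 3.37, in untreated 3xGrk-/- BMDCs, and Fcgr1 its largest share, 25.2% to 25.7%, in LPS-treated 3xGrk-/- BMDCs.

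Fcgrt differed from the other members. Its transcript (chromosome 7, 45092990 to 45103851, minus strand) was counted at 79.9 and 81.7 CPM in WT, 16.5 and 16.0 CPM in 3xGrk-/-, 24.7 and 26.1 CPM in LPS-treated WT, and 12.9 and 13.1 CPM in LPS-treated 3xGrk-/- BMDCs. Untreated WT BMDCs were high and the other 3 groups low. Fcgrt was 4.98-fold lower in 3xGrk-/- than in WT BMDCs without LPS (log2 -2.32, SE 0.103) and 1.95-fold lower with LPS (log2 -0.97, SE 0.147). LPS lowered it 3.17-fold in WT BMDCs (log2 -1.67, SE 0.0960). Its LPS response in 3xGrk-/- BMDCs was -0.32 (SE 0.147) on the same scale, and -0.54 when library size alone set the scale. B2m, which encodes the light chain shared by FcRn and MHC class I, did not follow Fcgrt: it averaged 1722 CPM in WT, 1902 in 3xGrk-/-, 3523 in LPS-treated WT and 6594 in LPS-treated 3xGrk-/- BMDCs.

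A gene was called changed at an adjusted p under 0.05 (edgeR quasi-likelihood test, Benjamini-Hochberg over all genes tested), and calls were frequent in every comparison. Between genotypes without LPS 44.7% of 12000 genes were called, and 5 of the 5 members tested were, 3 higher and 2 lower in 3xGrk-/- BMDCs. Fcgr4 did not pass the filter on low counts there. With LPS 48.6% of 11830 genes and all 6 members were called, 5 of them higher and Fcgrt lower. In the LPS response 60.3% of 12541 genes were called in WT BMDCs and 55.4% in 3xGrk-/- BMDCs. In WT 5 members were called, 4 lower and Fcgr4 higher, the last no longer called without either untreated WT library or without the first LPS-treated one, and in 3xGrk-/- BMDCs 5 were called, all higher. The difference between the 2 LPS responses was called in 32.5% of genes and in 5 members, each with the more positive response in 3xGrk-/- BMDCs. For Fcgr4, the member not called, the fitted difference was 2.96 on the log2 scale (SE 1.23, from the low counts given above), and it was called with DESeq2, without the second untreated 3xGrk-/- library and without the first LPS-treated WT library. Since the members were listed with these differences known, nothing is read from their counts. The median log2 difference between the responses was 1.25 over the 6 members and 0.01 over all genes.

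**Figure D3:**
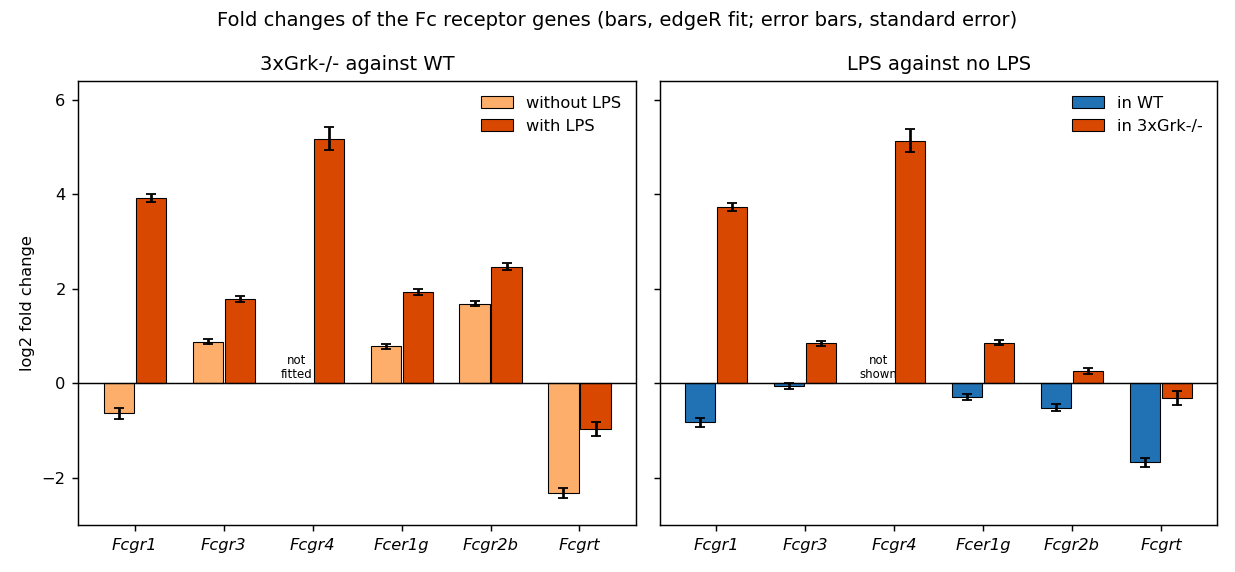
Log2 fold changes of the 6 Fc receptor genes between genotypes (left) and with LPS (right), with standard errors from the edgeR fit, 2 libraries per group. Bars for Fcgr4 are left out where a group held 1 and 2 counts. Fcgr1 changes sign between the untreated and LPS-treated comparison (-0.64 and 3.92), and Fcgrt is negative throughout.

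The genes around the receptors were then examined in 5 lists of the Fc receptor pathway with 93 genes, all of them in the tables. Between genotypes without LPS 78 were tested, of which 37 were higher and 16 lower in 3xGrk-/- BMDCs, and with LPS 79 were tested, of which 39 were higher and 26 lower. The called shares of 67.9% and 82.3% compare with 44.7% and 48.6% of all genes, and the median log2 fold changes were 0.13 and 0.19, against -0.00 and -0.01 over all genes.

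Of the 5 lists, that of ITAM adaptors and receptors that pair with the γ chain had the highest median in both comparisons. Of 8 genes tested in each comparison, 5 were higher and 1 lower without LPS, and 7 were higher and none lower with LPS, with medians of 0.54 and 1.93. Clec4e (Mincle), a receptor for mycobacterial cord factor, had mean levels of 24.6 CPM in WT and 188 CPM in 3xGrk-/- BMDCs (log2 2.91, SE 0.0761), and LPS-treated cells had 77.8 and 636 CPM (log2 3.03, SE 0.0690, edgeR adjusted p = 9.23e-19). Clec4d, which pairs with Mincle, rose by 2.78 (SE 0.0697) and 3.63 (SE 0.0841) on the log2 scale, and Clec4n (Dectin-2), a receptor for fungal mannans, by 0.80 (SE 0.0333) and 2.48 (SE 0.0647). Pira2, an activating paired receptor, was also higher in both comparisons (log2 1.79, SE 0.134, and 0.73, SE 0.0927). Clec4b1 (DCAR) was lower without LPS (log2 -1.52, SE 0.166, edgeR adjusted p = 5.44e-19) and had at most 4 counts in any LPS-treated library. The adaptor Tyrobp (DAP12) rose by 0.28 (SE 0.0436) and 1.15 (SE 0.0727), and Hcst (DAP10) was at -0.10 (SE 0.265) without LPS and rose by 1.67 (SE 0.316) with LPS. The list joins receptors that pair with the γ chain and adaptors other than it, such as Tyrobp and Hcst, the latter without an ITAM.

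Among 15 other Fc receptors and Fc-binding proteins, 6 were tested in each genotype comparison, of which 2 were higher and 2 lower without LPS and 4 higher and 2 lower with LPS. Fcrlb, an intracellular Fc receptor-like protein whose gene lies 45676 bases from Fcgr2b, had 1 and 3 counts in the untreated WT libraries and 34 and 21 in 3xGrk-/-, a ratio of 13.7 (95% exact interval 5.05 to 51.9). With LPS it had 1 and 3 counts in WT and 30 and 40 in 3xGrk-/- BMDCs, a ratio of 17.96 (6.71 to 67.7). Fcrls, a secreted Fc receptor-like protein, was lower in 3xGrk-/- BMDCs without LPS (log2 -1.34, SE 0.108, edgeR adjusted p = 6.63e-34) and higher with LPS (log2 2.20, SE 0.434, edgeR adjusted p = 2.22e-04), the same reversal of sign that Fcgr1 showed. Its group means were 54.0, 21.4, 0.944 and 4.33 CPM, however, so that unlike Fcgr1 it was lowered by LPS in both genotypes. B2m rose by 0.14 (SE 0.0296) without LPS and 0.90 (SE 0.0450) with LPS, and the first value was 0.06 and not called when library size alone set the scale. Ms4a2, the β chain of the IgE receptor and a mast cell and basophil gene, had 12 and 23 counts in LPS-treated WT and 1 and 1 in LPS-treated 3xGrk-/- libraries, a ratio of WT to 3xGrk-/- of 17.1 (4.38 to 146). Trim21, the cytosolic antibody receptor, was at -0.07 (SE 0.139) without LPS and rose by 0.49 (SE 0.111) with LPS. Fcmr, the IgM receptor, averaged 9.11 CPM in LPS-treated WT and 1.39 CPM in LPS-treated 3xGrk-/- BMDCs (log2 -2.71, SE 0.319). Fcer1a had 7 counts or fewer in every library, and Fcamr and Pigr had 0.

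Of the kinases, adaptors and effectors below ITAM receptors, 18 of 35 were higher and 6 lower in 3xGrk-/- BMDCs without LPS, and 15 of 34 were higher and 11 lower with LPS, with medians of 0.13 and 0.10. Syk, the kinase that the phosphorylated γ chain recruits, rose by 0.37 (SE 0.0394) without LPS and 0.85 (SE 0.0577) with LPS on the log2 scale. The kinase Src rose by 1.11 (SE 0.0981) and 1.66 (SE 0.0983), the adaptor Lat2 by 1.04 (SE 0.0741) and 1.16 (SE 0.115), and Pik3ap1 (BCAP), which links receptors to phosphoinositide 3-kinase, by 1.16 (SE 0.0662) and 1.12 (SE 0.0686). In contrast, Pik3cd, a catalytic subunit of phosphoinositide 3-kinase, was lower in both comparisons (log2 -0.60, SE 0.0453, and -0.91, SE 0.0693), as was the kinase Fyn (log2 -0.59, SE 0.0599, and -0.62, SE 0.0683). Pik3cg, a further catalytic subunit, was at -0.09 (SE 0.0438) without LPS and lower with LPS (log2 -1.32, SE 0.0599, edgeR adjusted p = 9.58e-14). Plcg1, a phospholipase activated below Syk, was at -0.34 (SE 0.110) without LPS and lower with LPS (log2 -0.66, SE 0.124), and the guanine nucleotide exchange factor Vav3 was at -0.35 (SE 0.0965) without LPS. The calls of both genes without LPS were lost without the first untreated 3xGrk-/- library and with DESeq2. Lat, for which the fit without LPS gave a log2 fold change of 2.0 (SE 0.481), had 5 or fewer counts in every WT library, and this call was lost with DESeq2. Genes of the list therefore moved in both directions in each comparison.

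The list of inhibitory signalling below ITIM receptors had 4 genes higher and 5 lower of 13 tested without LPS, and 4 higher and 7 lower of 14 with LPS, with medians of -0.01 and -0.21. Inpp5d, the SHIP-1 phosphatase that FcγRIIB recruits, was not called in either comparison (log2 -0.01, SE 0.0483, and 0.05, SE 0.0712) while the receptor itself was at 1.68 and 2.47. Its relative Inppl1 (SHIP-2) rose by 0.65 (SE 0.0772) and 0.33 (SE 0.0737). Ptpn6 (SHP-1), a phosphatase recruited by many ITIM receptors, was lower by -0.24 (SE 0.0473) without LPS and -0.78 (SE 0.0716) with LPS, and Csk, the kinase that keeps Src family kinases inactive, was at -0.01 (SE 0.0525) without LPS and lower with LPS (log2 -0.83, SE 0.0761, edgeR adjusted p = 8.65e-09). The Csk-binding adaptor Pag1 was at 0.11 (SE 0.0884) without LPS and rose by 1.54 (SE 0.119) with LPS. Ubash3b, a phosphatase that acts on Syk, was higher in both comparisons (log2 0.49, SE 0.0665, and 0.50, SE 0.0788). Ptpn22 was lower without LPS (log2 -1.22, SE 0.114), as was Dok2 (log2 -0.50, SE 0.0576), and Dok3 was lower without LPS (log2 -0.39, SE 0.0767) and higher with LPS (log2 0.95, SE 0.138). Cbl, a ubiquitin ligase, was higher without LPS (log2 0.46, SE 0.0392) and lower with LPS (log2 -0.29, SE 0.0596). Ubash3a had 9 and 15 counts in LPS-treated WT and 1 and 2 in LPS-treated 3xGrk-/- libraries, a ratio of WT to 3xGrk-/- of 7.80 (95% exact interval 2.37 to 40.4).

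Regulators of Fc receptor expression were called in 10 of 16 genes tested without LPS, 8 higher and 2 lower, and in 15 of 17 with LPS, 9 higher and 6 lower, with medians of 0.16 and 0.29. C5ar1, the C5a receptor, whose signal is known to raise activating and lower inhibitory Fcγ receptors in macrophages, was higher in both comparisons: it averaged 11.5 CPM in WT, 57.7 in 3xGrk-/-, 5.90 in LPS-treated WT and 53.6 in LPS-treated 3xGrk-/- BMDCs (log2 2.33, SE 0.123, and 3.19, SE 0.149). Genes of the interferon pathway, which is known to induce Fcgr1, differed by less than 1 log2 unit in each case named here. Irf1 was higher in both comparisons (log2 0.45, SE 0.0677, and 0.48, SE 0.0707). The receptor chain Ifngr1 was lower without LPS (log2 -0.33, SE 0.0745, a call lost with DESeq2) and higher with LPS (log2 0.50, SE 0.102). Spi1, which encodes PU.1, was at 0.00 (SE 0.0446) without LPS and rose by 0.57 (SE 0.0694) with LPS. Irf8 was higher without LPS (log2 0.82, SE 0.0417) and lower with LPS (log2 -0.59, SE 0.0532). Il10, a cytokine known to raise Fcgr1, had 0 counts in the 4 untreated libraries, 2 and 1 in LPS-treated WT, and 21 and 25 in LPS-treated 3xGrk-/- BMDCs, a ratio of 15.7 (95% exact interval 5.06 to 79.1), while the receptor chain Il10ra was lower with LPS (log2 -0.67, SE 0.0586). Il10rb was higher in both comparisons (log2 0.69, SE 0.0925, and 0.47, SE 0.0907). The kinase Jak2 was lower in both (log2 -0.14, SE 0.0327, and -0.38, SE 0.0556), and Stat6 was lower with LPS (log2 -0.38, SE 0.0619). C5ar2, a further C5a receptor, was at 1.12 (SE 0.447) with LPS, a call lost with DESeq2 and without any of 3 of the 4 LPS-treated libraries.

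**Figure D4:**
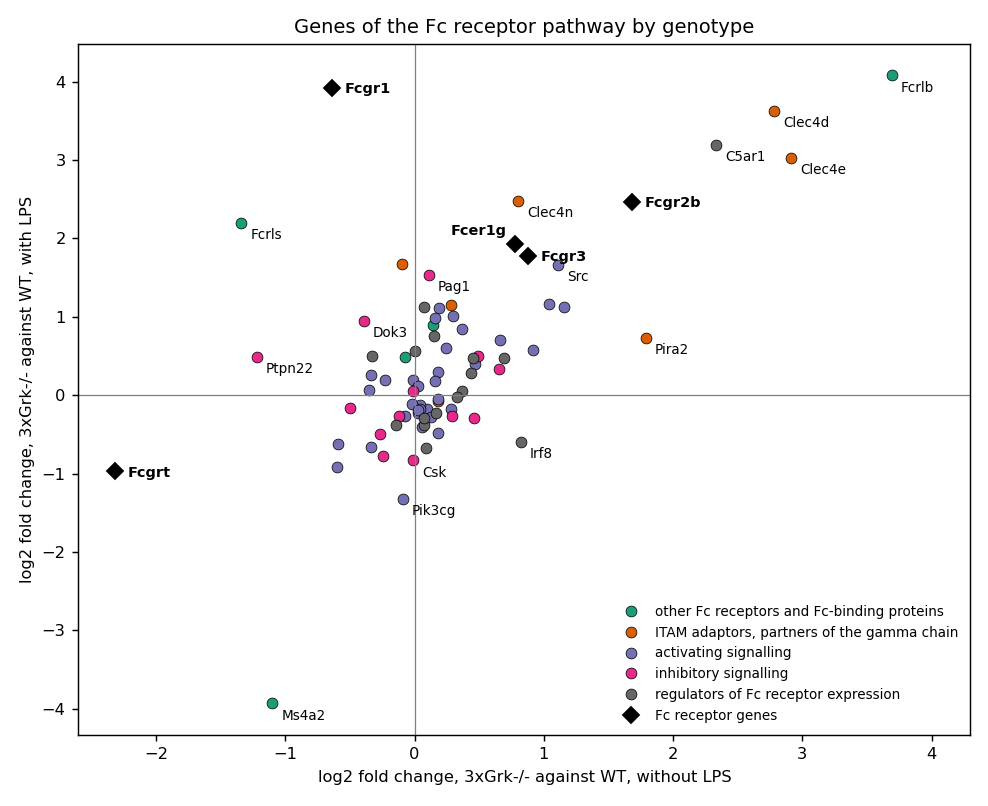
Log2 fold change between 3xGrk-/- and WT BMDCs without LPS (horizontal) and with LPS (vertical) for the 75 pathway genes tested in both comparisons, coloured by list, and for 5 Fc receptor genes (diamonds). Clec4e, Clec4d, C5ar1, Fcgr2b, Fcgr3 and Fcer1g lie at the upper right, Fcgr1 and Fcrls at the upper left, and Irf8 below the horizontal line.

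The pathway lists also responded to LPS itself. Of 81 genes tested, 41 were higher and 25 lower after LPS in WT BMDCs, and 41 were higher and 29 lower in 3xGrk-/- BMDCs, which is 81.5% and 86.4% against 60.3% and 55.4% of all genes. In the list of ITAM adaptors and partners of the γ chain, 4 of 9 genes were higher and 5 lower after LPS in WT BMDCs. In 3xGrk-/- BMDCs 6 were higher and 3 lower. Clec4e rose in WT and 3xGrk-/- BMDCs (log2 1.64 and 1.76), as did Pira2 (log2 2.04 and 0.98). Clec4n fell from 799 to 108 CPM in WT (log2 -2.89) and from 1391 to 603 CPM in 3xGrk-/- BMDCs (log2 -1.21). The adaptor Tyrobp fell from 283 to 88.7 CPM and from 343 to 198 CPM (log2 -1.67 and -0.79). The Src family kinase Fgr fell in both genotypes as well (log2 -3.29 and -2.94). The difference between the LPS responses was called in 51 of the 81 genes, 23 with the higher response in 3xGrk-/- BMDCs and 28 with the lower, which is 63.0% against 32.5% of all genes. For Clec4n it was 1.68 (SE 0.0702), for Tyrobp 0.88 (SE 0.0816) and for Pik3cg -1.23 (SE 0.0750).

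Several genes of other families had group patterns close to those of single members. Likeness was measured as the root mean square difference of centred log2 CPM over the 8 libraries among 9394 genes, a measure that follows any difference between the groups, including that of the marker lists. Fcgr3 and Fcer1g were among the closest to each other, at 0.10 log2 units, next to Tcirg1, a subunit of the vacuolar proton pump, at 0.09 from Fcgr3, and the inhibitory receptor Sirpa at 0.11. The genes closest to Fcer1g were Slc27a1 and Slc23a2, both at 0.09, and Dnase1l1 at 0.10. Igsf6 was closest to Fcgr2b at 0.12, followed by Slc16a10 and Hgsnat at 0.19 each. Pgf (0.31), Ms4a6d (0.40) and Ms4a6c (0.49) were closest to Fcgr1, and Ly6a (0.40), Hilpda (0.43) and Selenom (0.55) to Fcgr4. Fcgr1 averaged 310.3 CPM in LPS-treated 3xGrk-/- BMDCs, where Ms4a6d averaged 630.3 CPM against 58.5 to 79.8 CPM in the other groups. The genes closest to Fcgrt were Lmnb1 (0.19), which encodes lamin B1, the chromatin protein gene Hmgb2 (0.22) and Zwilch (0.23), which encodes a kinetochore protein. Lmnb1 averaged 86.5, 22.8, 28.3 and 13.8 CPM in the order of groups above. The nearest member to Fcgrt was Fcer1g, at 1.61.

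Fcgr2b, Fcgr4, Fcgr3 and Fcer1g form a cluster on chromosome 1, and the genes around them were examined for changes of the whole region. Of the other genes within 250 kb of them, 20 were tested without LPS and 19 with LPS. In 3xGrk-/- BMDCs 4 were higher and 1 lower without LPS, and 3 were higher and 3 lower with LPS, shares of 25% and 31.6% against 44.7% and 48.6% of all genes. Fcrlb had the largest rise among them. Around Fcgr1, 2 of 7 genes were higher without LPS and none of the 5 tested with LPS was called, and around Fcgrt, 5 of 24 were higher and 3 lower without LPS and 6 of 26 were higher and 8 lower with LPS.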

How the data were processed

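Poly(A) RNA of 8 mouse BMDC libraries, 2 per group, was sequenced with a stranded protocol. The authors aligned the reads to GRCm38 and deposited raw read counts per gene from featureCounts, in 1 table for the untreated and 1 for the LPS-treated libraries. The annotation release and the strand setting are not given in the sources used here. Nothing in the labels says that the libraries of a group came from separate mice or cultures, and the study's methods describe the RNA isolation as done in technical replicates, so the p-values measure only the spread between these libraries, which may be technical. The coefficient of variation between libraries that edgeR estimated was 0.0306 in the untreated and 0.0573 in the LPS-treated table.

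Ensembl IDs were matched without version to the GENCODE M21 annotation (47310 of 47937 IDs, with 0.0468% of counts on unmatched IDs). Counts were scaled by TMM and filtered with filterByExpr, and edgeR 4.0.16 (R 4.3.3) quasi-likelihood tests with Benjamini-Hochberg adjustment were fitted over all genes, per table for the genotype comparisons and over all 8 libraries for the LPS responses and their difference. The tests were checked on simulated counts. CPM use TMM-scaled library sizes, RPKM divide by union exon length, and standard errors are the log2 fold change over the square root of F. Ratios of counts carry exact binomial intervals at 95%, which treat the summed reads of the libraries of a group as independent and cover counting error only, not the spread between libraries. Replicate numbers did not pair the libraries: their deviations correlated between groups at -0.02 to 0.03 over 12541 genes. The members and all gene lists were chosen with earlier results of these data known. Named beside the members were, in each list and genotype comparison, up to 3 called genes with the highest and 3 with the lowest log2 fold change (for the LPS responses and their difference the rule names more genes than are given), with further list genes named for their role and chosen after their values were seen, the genes within 250 kb and the 3 genes nearest in pattern among those with a mean log2 CPM of at least 3 (pseudocount 0.5). Promoter sequences are from RefSeq (GRCm38.p6). Alternatives were DESeq2 1.42.0, other scalings, filters and thresholds, a replicate block and leaving out each library.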

Additional observations from a re-analysis of the deposited data

Results flagged for a closer look

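The difference between the LPS responses of 3xGrk-/- and WT BMDCs stood out for 3 members and 10 pathway genes. For the members it is given as a value and nothing is read from its call, since they were chosen with it known. LPS-treated and untreated libraries did not overlap and moved in opposite directions in the 2 genotypes for Fcgr1, which differed by 4.56 on the log2 scale, for Fcer1g (1.15) and for Fcgr2b (0.79, with a response of 0.05 in 3xGrk-/- BMDCs when library size alone set the scale). In the pathway lists the interaction term passed (edgeR quasi-likelihood test, adjusted p under 0.05) and the genotype difference changed sign between untreated and LPS-treated BMDCs. Fcrls had the more positive response in 3xGrk-/- BMDCs by 3.53 (adjusted p = 6.11e-08), Dok3 by 1.34 (adjusted p = 4.65e-08), Ifngr1 by 0.83 (adjusted p = 5.15e-06) and the kinase Lyn by 0.60 (adjusted p = 1.86e-05). The response was more negative in 3xGrk-/- BMDCs for Irf8 (-1.41, adjusted p = 1.01e-15), Cbl (-0.74, adjusted p = 1.84e-09), Btk (-0.65, adjusted p = 4.67e-06), Dok1 (-0.56, adjusted p = 2.03e-05), Pik3r1 (-0.41, adjusted p = 1.04e-04) and Stat3 (-0.39, adjusted p = 5.13e-05). For some of these genes one side of the sign change lost its call in alternatives: Btk without LPS (0.18) and Pik3r1 without LPS (0.13) with DESeq2, when library size alone set the scale and without some single untreated libraries, Stat3 without LPS (0.17) when library size alone set the scale and without the second untreated WT library, Stat3 with LPS (-0.23) without either LPS-treated 3xGrk-/- library, Lyn with LPS (0.26) with DESeq2, when library size alone set the scale and without either of these libraries, Dok1 with LPS (-0.27) with DESeq2 and without either of them, and Ifngr1 without LPS (-0.33) with DESeq2. The comparison covers changes relative to the summed RNA of each library, and the macrophage and monocyte marker sum differed between all 4 groups, with LPS-treated 3xGrk-/- below untreated 3xGrk-/- BMDCs when Lyz2 was counted and above them without it. Its part in these differences was not tested.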

How the results depend on the processing

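All called log2 fold changes of the members kept their sign in the alternatives run. The yardstick was the square root of the within-group variances of log2 CPM, summed over the groups compared. By less than this, 297 values differed from the reported one, while 24 differed by more. Library size as the only scaling gave most of the others, with the LPS responses lower by about 0.22 on the log2 scale: Fcgr1 was then -1.05 in WT and 3.51 in 3xGrk-/- BMDCs, and Fcgr2b -0.74 and 0.05. The number of genes called depended on the tool and the threshold. DESeq2 called 2831 genes between genotypes without LPS, 3663 with LPS and 2450 in the difference between LPS responses. With a log2 fold change of at least 1 required, 1444, 1984, 2700, 2373 and 1375 genes passed (genotype without LPS, with LPS, LPS in WT, LPS in 3xGrk-/-, difference), and 13, 21, 24, 20 and 10 pathway genes. With a coefficient of variation of 0.4 set for every gene, as for unrelated biological samples, 448, 782, 1110, 850 and 72 genes passed, and 4, 11, 12, 10 and 1 pathway genes, and 1, 5, 0, 2 and 1 members. In the LPS response of WT BMDCs all 6 members were called when library size alone set the scale, and 4 without the first or second untreated WT or the first LPS-treated WT library, where Fcgr4 lost its call. Leaving out each library in turn gave 4253 to 4788, 4460 to 5712, 6417 to 7199, 5844 to 6003 and 3328 to 4199 genes. With the replicate block, 5292 and 5654 genes were called between genotypes without and with LPS, and no count moved by more than 1.5 times. The ratio of activating receptors to Fcgr2b from counts was 2.08, 1.03, 2.65 and 2.51 (WT, 3xGrk-/-, LPS-treated WT, LPS-treated 3xGrk-/-). For genotype with LPS, LPS in WT, LPS in 3xGrk-/- and the difference, 9, 15, 15 and 5 neighbouring genes were called within 100 kb. These were 34.6%, 51.7%, 51.7% and 17.2% of the 26, 29, 29 and 29 tested, against 48.6%, 60.3%, 55.4% and 32.5% of all genes. Within 250 kb the shares were 40%, 56.6%, 50.9% and 20.8%, and this window held 53 genes instead of 29. Among the pathway genes named for the genotype comparisons, the calls of Ms4a2, Lat, Vav3, Plcg1 and Ifngr1 without LPS and of Ubash3a and C5ar2 with LPS were lost with DESeq2. The cause of these changes was not tested. Genes at a few counts per library, such as Fcgr4 in WT BMDCs, are limited by depth.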
